A study of Arabidopsis thaliana with 12 samples.

Results

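In Arabidopsis plants carrying the lug-3 allele, 178 probe sets of the ATH1 array gave a higher signal than wild type in rosette leaves and a lower signal than wild type in flowers. They were 0.783% of the 22746 probe sets of the array that are not controls. A probe set was counted as a member when 4 conditions on x = log2(signal + 8) held. In leaves, all 3 lug-3 arrays lay above all 3 wild-type arrays and the mean difference in x was at least 0.5. In flowers, all 3 lug-3 arrays lay below all 3 wild-type arrays and the mean difference was -0.5 or lower. Both genotype differences therefore chose the members and are given below as descriptions, without a test.

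The 4 groups were lug-3 rosette leaves and wild-type rosette leaves, both at growth stage 3.90, and lug-3 flowers and wild-type flowers, both at growth stage 6.90. All plants, wild type included, were of the Landsberg erecta (Ler-0) background. Each group had 3 arrays and each array a pool of 20 plants, from seeds kept for 4 days at 4 °C and then grown at 20 °C. Per the labels, lug-3 plants differed from wild type in shoot branching, petiole length and number of inflorescences, so lug-3 and wild-type tissue can differ in developmental state and in the mix of cells. In such samples, fewer cells of a type and less RNA per cell cannot be told apart. The extraction text of the flower samples names rosette leaves, whereas their tissue label says flowers, and the marker genes described below bear on that label. Separate growth and extraction of the 3 pools is not stated in the labels, and the p-values cover only the spread among these arrays, which may be technical.

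The lug-3 allele affects LEUNIG (LUG), a transcriptional corepressor of the Groucho/Tup1 type. It has no DNA-binding domain of its own and is brought to genes by partner proteins such as SEUSS (SEU). It is best known in the flower, where it keeps the carpel and stamen identity gene AGAMOUS from being expressed in sepals and petals, and it also acts in leaf growth and polarity. Plant organs enlarge by loosening and extending their cell walls, through expansins, xyloglucan endotransglucosylases and pectin-modifying enzymes, while new wall, cuticle and membrane material is secreted.

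The leaf condition alone was met by 1838 probe sets (8.08%) and the flower condition alone by 1724 (7.58%). The members made up 9.68% of those meeting the leaf condition and 10.3% of those meeting the flower condition. The opposite pattern, lower in lug-3 leaves and higher in lug-3 flowers, held for 187 probe sets (0.822%) under the same limits. Another 105 probe sets (0.462%) were higher in lug-3 in both tissues and 159 (0.699%) were lower in both. Of the 178 members, 67 carry exactly 1 gene in the array annotation, 2 carry several genes and 109 are unnamed here. The share with 1 gene was 37.6% among the members and 59.4% among all 22746 probe sets, so the named genes below describe a minority of the pattern.

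Among the members, the leaf difference (lug-3 minus wild type) ran from 0.50 to 3.00 on the log2 scale with a median of 0.99, and the flower difference from -2.29 to -0.50 with a median of -0.75. The leaf difference was the larger in size for 120 members and the flower difference for 58. The leaf difference reached 1 for 88 members, the flower difference reached -1 for 45, and 26 members passed both limits. Of those 26, 15 have 1 gene, among them the expansin gene EXPA8, EXO, XTH16, BZIP61, 5 GDSL lipase genes (AT1G29660, AT4G18970, AT4G28780, AT5G45670 and AT5G45950) and the peroxidase gene AT5G64120. At the edge of the rule, the probe set just inside the leaf limit had a leaf difference of 0.5000 and RALFL22, just outside it, 0.496 with a flower difference of -0.620. At the flower limit, AT2G10940 lay just inside at -0.506 and AT3G07470 just outside at -0.498.

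**Figure D1:**
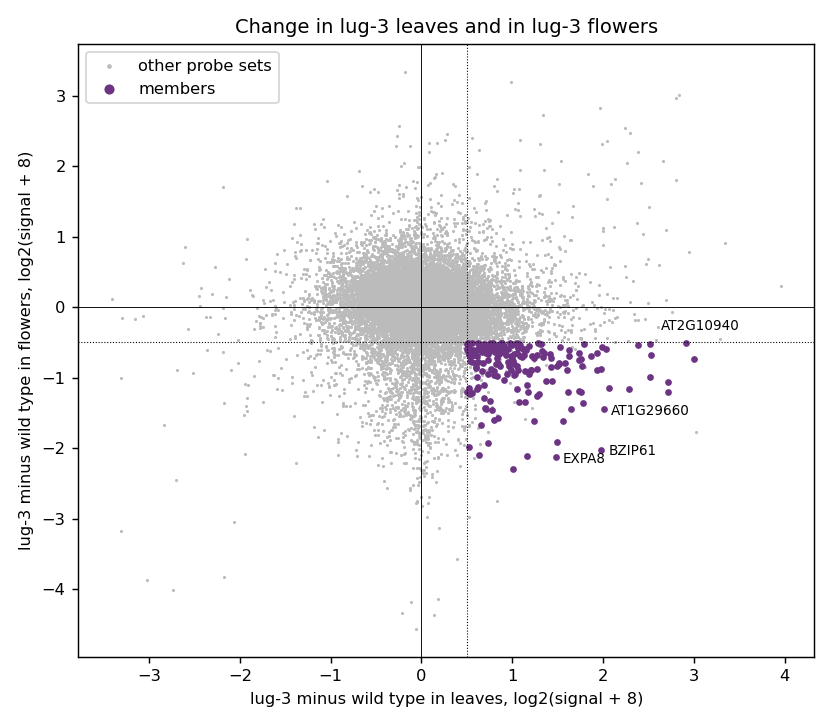
Difference between lug-3 and wild type in flowers (vertical axis) against that in leaves (horizontal axis), both as mean differences of log2(signal + 8), with 1 point for each of the 22746 non-control probe sets. The 178 members, in purple, fill the lower right corner by construction of the rule, whose limits of 0.5 and -0.5 are dotted; AT2G10940 lies far to the right near the flower limit, and BZIP61, EXPA8 and AT1G29660 lie far from both limits.

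The rule fixes part of the order of the 4 groups. Only wild-type leaves or lug-3 flowers can be lowest, and only wild-type flowers or lug-3 leaves highest. Wild-type leaves had the lowest mean log2 level of the 4 groups for 149 members and lug-3 flowers for 29, while wild-type flowers had the highest for 140 and lug-3 leaves for 38. The median of the mean signals was 87.1 in lug-3 leaves, against 36.4 in wild-type leaves. It was 89.7 in lug-3 flowers, against 180.0 in wild-type flowers. In 75 members the order of the tissues crossed over, with flowers below leaves in lug-3 and above leaves in wild type. In 36 of these the arrays of the tissues did not overlap in either genotype. The rule places the tissue difference in lug-3 below that in wild type, which favours such crossing. No share over all probe sets was counted. Flowers were above leaves in both genotypes for 91 members and below leaves in both for 12. Some members were near the lowest levels measured: all 3 arrays were at or below a signal of 16.4, the 30th percentile of all signals, for 15 members in lug-3 leaves and 41 in wild-type leaves. In flowers this held for 17 members in lug-3 and 5 in wild type.

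The groups below were made by giving roles to members alone. No share of such genes over all probe sets was counted, so the size of a group does not show enrichment. Genes for wall loosening and wall assembly formed the first group, with 4 members. EXPA8 encodes an alpha-expansin, a protein that loosens the bonds between wall polymers. EXPA8 signals were 186, 193 and 205 in lug-3 leaves, against 30.8, 62.3 and 132 in wild-type leaves. In flowers they were 86, 76.8 and 58.4 in lug-3 flowers, against 332, 376 and 333 in wild-type flowers. All lug-3 leaf arrays lay close together, the wild-type leaf arrays were spread widely, and every wild-type flower array was above every other array of this gene. The log2 difference was 1.48 (SE 0.35) in leaves and -2.13 (SE 0.35) in flowers, the most negative flower value among members with 1 gene. SKU5, which encodes a glycosylphosphatidylinositol-anchored protein related to multicopper oxidases and needed for directed root growth, had signals of 278, 486 and 519 in lug-3 leaves, against 57, 124 and 133 in wild-type leaves, and 282, 224 and 327 in lug-3 flowers, against 567, 488 and 477 in wild-type flowers. Its leaf difference was 1.98 (SE 0.30) and its flower difference -0.87 (SE 0.30). EXO encodes EXORDIUM, an extracellular protein that promotes leaf growth in response to brassinosteroid. EXO had signals of 326, 128 and 137 in lug-3 leaves, against 76.3, 18.8 and 66.7 in wild-type leaves. Its flower signals were 204, 123 and 90.8 in lug-3 flowers, against 310.4, 325 and 306 in wild-type flowers. Array 1 of lug-3 leaves was far above the other lug-3 leaf arrays of EXO and array 2 of wild-type leaves far below the other wild-type leaf arrays. The leaf difference of EXO was 1.76 (SE 0.46) and its flower difference -1.20 (SE 0.46). XTH16, a xyloglucan endotransglucosylase/hydrolase that cuts and rejoins wall xyloglucan, had signals of 29.9, 35.6 and 27.1 in lug-3 leaves, against 20.4, 7.84 and 6.39 in wild-type leaves, and 95, 50.2 and 88.1 in lug-3 flowers, against 194, 172 and 171 in wild-type flowers. XTH16 was at its highest in wild-type flowers and, unlike the other members of this group, remained higher in flowers than in leaves in lug-3 as well.

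The 4 pectin enzyme genes had leaf differences of 0.76 to 2.39 and flower differences of -1.34 to -0.54. AT4G23820, a pectin lyase-like gene, had signals of 198, 281 and 289.9 in lug-3 leaves, against 22.9, 43.5 and 69.7 in wild-type leaves, a leaf difference of 2.39 (SE 0.28). In flowers its signals were 554, 463 and 383 in lug-3 flowers, against 698, 651 and 675 in wild-type flowers, a difference of -0.54 (SE 0.28). The lug-3 leaf level thus stood well above the wild-type leaf level while remaining below every flower array. AT3G43270, a pectin methylesterase gene whose product removes methyl groups from pectin, showed the reverse balance, with 104, 100.1 and 104 in lug-3 leaves, against 69.7, 59.4 and 45.4 in wild-type leaves, and 102, 111 and 77.5 in lug-3 flowers, against 249, 295 and 222 in wild-type flowers. Its flower difference was -1.34 (SE 0.17) and its leaf difference 0.76 (SE 0.17), and the lug-3 arrays of both tissues lay near the same level. The pectate lyase genes AT3G07010 and AT5G48900, whose products cleave de-esterified pectin, had leaf differences of 1.13 (SE 0.26) and 1.06 (SE 0.17) and flower differences of -0.68 (SE 0.26) and -0.64 (SE 0.17).

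**Figure D2:**
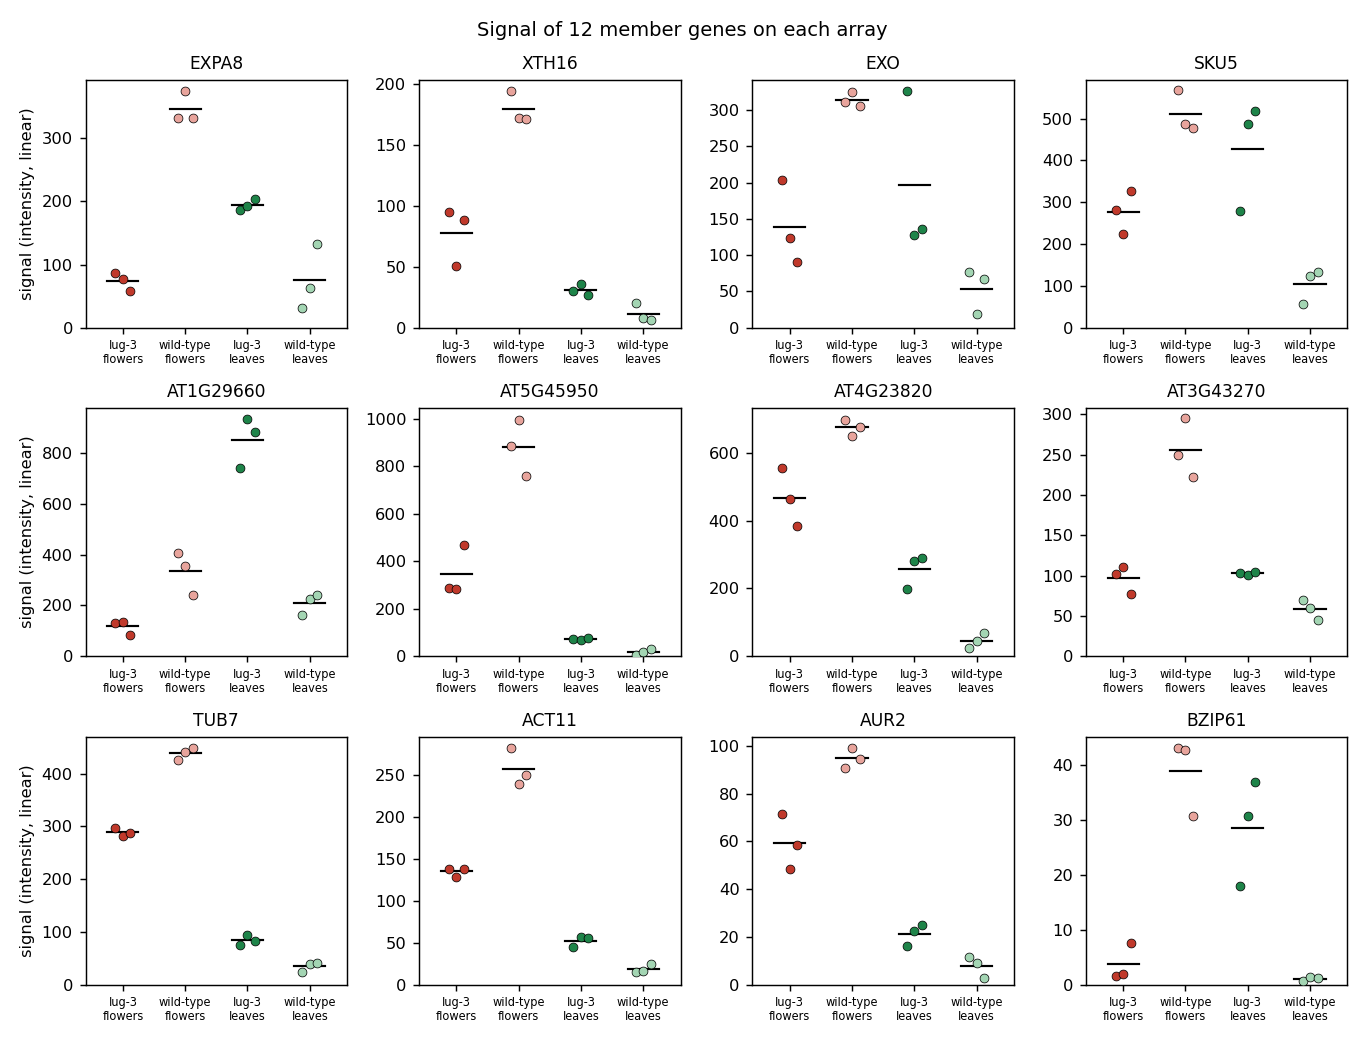
Signal (linear intensity, vertical axis, a separate scale for each gene) of 12 member genes on each of the 12 arrays, with 1 point for each array and a bar at the mean of each group of 3. Mean signals are highest in wild-type flowers for the genes drawn except AT1G29660, which is highest in lug-3 leaves, and BZIP61 stands at or below 1.32 on all wild-type leaf arrays.

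Genes of the GDSL lipase family, a large family of secreted esterases and lipases that includes enzymes of cutin synthesis, gave 7 members. Their leaf differences ran from 0.54 to 2.01 and their flower differences from -1.45 to -0.78. AT1G29660 had signals of 741, 935 and 883 in lug-3 leaves, against 161, 223 and 239 in wild-type leaves, and 131, 136 and 85.1 in lug-3 flowers, against 407, 357 and 241 in wild-type flowers. It was highest in lug-3 leaves and lowest in lug-3 flowers, with a leaf difference of 2.01 (SE 0.23) and a flower difference of -1.45 (SE 0.23). AT5G45950 followed another order, with 72.2, 66.9 and 77.2 in lug-3 leaves, against 5.12, 18.4 and 28.7 in wild-type leaves, and 287, 282 and 466 in lug-3 flowers, against 885, 995 and 758 in wild-type flowers. AT4G18970 had signals of 37.3, 47.7 and 43.4 in lug-3 leaves, against 2.43, 5.68 and 21.4 in wild-type leaves, and 209, 185 and 194 in lug-3 flowers, against 642, 575 and 438 in wild-type flowers. AT4G28780 had signals of 37.8, 39.1 and 57.1 in lug-3 leaves, against 4.51, 2.96 and 19.8 in wild-type leaves, and 115, 124 and 142 in lug-3 flowers, against 318, 331 and 255 in wild-type flowers. In AT5G45950, AT4G18970 and AT4G28780, every flower array of either genotype lay above every leaf array. AT5G45670 was almost silent in leaves, with 12.5, 11.1 and 17.9 in lug-3 leaves, against 3.9, 0.616 and 0.815 in wild-type leaves, and reached 271, 251 and 265 in lug-3 flowers, against 660.3, 568 and 509 in wild-type flowers. The remaining GDSL members, AT1G20135 and AT1G75900, had leaf differences of 0.54 (SE 0.23) and 0.56 (SE 0.21) and flower differences of -1.23 (SE 0.23) and -0.78 (SE 0.21).

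Another 4 members encode small secreted or wall-bound proteins: AT2G10940 and AT2G45180, of the lipid transfer and protease inhibitor family, the arabinogalactan protein gene AT4G16980 and the DUF642 gene AT5G11420. AT2G10940 had the largest leaf difference of the members with 1 gene, 2.92 (SE 0.53), from signals of 875, 1189 and 1327 in lug-3 leaves, against 39, 196 and 333 in wild-type leaves. Its flower signals were 765, 801 and 731 in lug-3 flowers, against 1054, 1075 and 1143 in wild-type flowers, and its flower difference of -0.51 (SE 0.53) was among the smallest of all members. The 3 wild-type leaf arrays of AT2G10940 were far apart, which widened the SE of both differences because it is pooled over the groups. Its flower arrays lay close together within each genotype. The leaf difference of AT2G10940 was 4.58 without the 3 arrays of highest GAPDH ratio described below. AT4G16980 had signals of 1865, 1719 and 1544 in lug-3 leaves, against 429.8, 596 and 509 in wild-type leaves, and 264, 254 and 178 in lug-3 flowers, against 450.1, 379.8 and 351 in wild-type flowers. AT2G45180 had signals of 2737, 3357 and 3192 in lug-3 leaves, against 1086, 1344 and 2137 in wild-type leaves, and 253, 274 and 127 in lug-3 flowers, against 277, 300.5 and 325 in wild-type flowers. These genes were more abundant in leaves than in flowers in both genotypes, an order that only 12 of the 178 members had. The flower difference of AT2G45180, -0.52 (SE 0.29), rested largely on array 3 of lug-3 flowers and was -0.19 without it. AT5G11420 had signals of 597, 708 and 749.5 in lug-3 leaves, against 161, 196 and 236 in wild-type leaves, and 247, 232 and 303 in lug-3 flowers, against 442, 411 and 466 in wild-type flowers, with a leaf difference of 1.76 (SE 0.16) and a flower difference of -0.74 (SE 0.16).

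The peroxidase genes AT5G64120 and AT3G28200, of the secreted class that oxidizes wall phenolics, both crossed over. AT5G64120 had signals of 103, 124 and 113 in lug-3 leaves, against 58.2, 53.5 and 21.5 in wild-type leaves, and 69.3, 65.8 and 22.4 in lug-3 flowers, against 156, 139.9 and 84 in wild-type flowers. AT3G28200 had signals of 101, 89 and 98.1 in lug-3 leaves, against 37, 58.9 and 37 in wild-type leaves, and 61.1, 56.1 and 59.95 in lug-3 flowers, against 128, 109 and 93.1 in wild-type flowers. The flower difference of AT5G64120, -1.23 (SE 0.39), was -0.79 without array 3 of lug-3 flowers. In both genes the highest single array was a wild-type flower array, and flowers averaged below leaves in lug-3.

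Genes of the cytoskeleton gave 3 members, the beta-tubulin genes TUB5 and TUB7 and the actin gene ACT11, which is known for expression in reproductive organs. TUB7 had signals of 75.3, 93.1 and 82.6 in lug-3 leaves, against 23.9, 39.4 and 40.05 in wild-type leaves, and 297, 283 and 288 in lug-3 flowers, against 426, 442 and 449 in wild-type flowers, with differences of 1.13 (SE 0.15) in leaves and -0.59 (SE 0.15) in flowers. TUB5 had signals of 218, 339.7 and 345 in lug-3 leaves, against 169, 125 and 199.5 in wild-type leaves, and 404, 315 and 348 in lug-3 flowers, against 541, 572 and 501 in wild-type flowers. ACT11 had signals of 44.5, 56.8 and 55.8 in lug-3 leaves, against 14.5, 16.2 and 24.2 in wild-type leaves, and 138, 129 and 138 in lug-3 flowers, against 283, 239.7 and 249.8 in wild-type flowers, with differences of 1.21 (SE 0.15) and -0.89 (SE 0.15). None of the 3 crossed over: both flower groups averaged above both leaf groups. AUR2, which encodes an Aurora kinase of mitosis and is the only member from the 3 measured cell cycle genes, had signals of 16.1, 22.6 and 24.9 in lug-3 leaves, against 11.7, 9.05 and 2.92 in wild-type leaves, and 71.3, 48.6 and 58.5 in lug-3 flowers, against 90.9, 99 and 94.4 in wild-type flowers. Its levels kept the same order, with the lowest lug-3 leaf array close to the highest wild-type leaf array.

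Ribosomal protein genes gave 3 members, AT3G44590 (acidic protein P2), AT5G60670 (L12) and AT1G07070 (L35Ae). Their leaf differences were 0.63 to 1.43 and their flower differences -0.71 to -0.51. AT3G44590 had signals of 331, 333 and 409.7 in lug-3 leaves, against 124, 126 and 132 in wild-type leaves, and 352, 462 and 445 in lug-3 flowers, against 666, 623 and 790.1 in wild-type flowers. Its arrays lay close together within each leaf group, and its leaf difference was 1.43 (SE 0.14).

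Of the transcription factor genes, BZIP61 and AGL104 were members. BZIP61, a basic leucine zipper gene, had nearly equal differences of opposite sign, with signals of 18, 30.7 and 36.9 in lug-3 leaves, against 0.58, 1.32 and 1.23 in wild-type leaves, and 1.61, 1.87 and 7.63 in lug-3 flowers, against 43, 42.8 and 30.6 in wild-type flowers. The signal was close to 0 on all wild-type leaf arrays and low on all lug-3 flower arrays. Its differences were 1.98 (SE 0.23) in leaves and -2.02 (SE 0.23) in flowers, and the gap between them was the largest among members with 1 gene. AGL104, a MADS-box gene known from pollen, was low throughout, with 13.4, 14.7 and 6.28 in lug-3 leaves, against 2.52, 0.922 and 2.2 in wild-type leaves, and 9.52, 13.1 and 15.3 in lug-3 flowers, against 26.1, 21 and 22.3 in wild-type flowers. Among genes of signalling and hormone metabolism, RALFL24 encodes a RALF-like signalling peptide, AT3G56370 a leucine-rich repeat receptor kinase, GH3.17 an enzyme that conjugates auxin to amino acids and THI2.1 a thionin, an antimicrobial peptide of the jasmonate response. RALFL24 had signals of 52.4, 101 and 77.9 in lug-3 leaves, against 30.5, 40.4 and 33.1 in wild-type leaves, and 129, 85.7 and 126 in lug-3 flowers, against 216, 197 and 202 in wild-type flowers. GH3.17 was at or below 9.25 on all leaf arrays and had 84.6, 98.7 and 73.6 in lug-3 flowers, against 281, 221 and 144 in wild-type flowers. THI2.1 had signals of 19, 34.4 and 29.7 in lug-3 leaves, against 9.08, 17.8 and 11.9 in wild-type leaves, and 820.1, 888 and 781 in lug-3 flowers, against 1110.3, 1208 and 1533 in wild-type flowers. All 4 remained higher in flowers than in leaves in both genotypes, THI2.1 by the widest margin.

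The other enzyme and transporter genes, 10 members, had leaf differences of 0.52 to 1.37 and flower differences of -1.62 to -0.58, and 7 of them crossed over. AT5G44400, a gene of the berberine bridge enzyme-like oxidases, had signals of 71, 109 and 87.3 in lug-3 leaves, against 24, 48 and 29.5 in wild-type leaves, and 72.4, 113 and 113 in lug-3 flowers, against 266, 297 and 397 in wild-type flowers. AT2G43620, of the chitinase family, had signals of 87, 89.4 and 84.1 in lug-3 leaves, against 43.7, 31.8 and 21.4 in wild-type leaves, and 36.4, 45.1 and 33.2 in lug-3 flowers, against 123, 105 and 83.1 in wild-type flowers. AT1G22410, which encodes a DAHP synthase, the entry enzyme of the shikimate pathway to aromatic amino acids, had signals of 629, 1042 and 989 in lug-3 leaves, against 430.3, 524 and 338 in wild-type leaves, and 616, 602 and 712 in lug-3 flowers, against 1058, 1015 and 981 in wild-type flowers. AT2G43620 was high in lug-3 leaves and wild-type flowers and low in lug-3 flowers and wild-type leaves, while AT1G22410 was high on most arrays. The beta-glucosidase gene BGLU15 had differences of 0.52 (SE 0.17) in leaves and -1.15 (SE 0.17) in flowers. The others were the HXXXD-type acyltransferase genes AT5G02890 and AT5G01210, the purple acid phosphatase gene AT1G25230, the sugar isomerase gene SETH3, the NPF transporter gene AT5G28470 and the protein phosphatase 2C gene AT3G51470.

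The remaining 23 members with 1 gene were given no role. Their leaf differences ran from 0.52 to 1.93 and their flower differences from -2.09 to -0.51, and 13 of them crossed over. AT4G19430 had the second most negative flower difference with 1 gene, -2.09 (SE 0.21), from signals of 367, 264 and 359 in lug-3 flowers, against 1387, 1560.2 and 1319.8 in wild-type flowers. Its leaf signals were 155, 179 and 151 in lug-3 leaves, against 72.1, 97.5 and 145 in wild-type leaves, and the leaf difference of 0.64 (SE 0.21) was 0.41 without array 1 of wild-type leaves. AT1G22330, which encodes a protein with an RNA recognition motif, had signals of 17.7, 24.3 and 35.2 in lug-3 leaves, against 0.463, 4.21 and 5.64 in wild-type leaves, and 1.01, 4.86 and 1.21 in lug-3 flowers, against 21.7, 19.3 and 29.98 in wild-type flowers. It resembled BZIP61 in being low in lug-3 flowers and in wild-type leaves. AT1G11850 had differences of 1.93 (SE 0.17) and -0.89 (SE 0.17), and AT5G14890 of 0.71 (SE 0.19) and -1.45 (SE 0.19). AT2G15920, at low signal throughout, had a leaf difference of 0.67 that was 0.37 without array 2 of wild-type leaves. Only 1 pair of named members, AT2G25870 and AUR2, were direct neighbours in the order of genes along the chromosomes, with differences of 0.98 (SE 0.19) and -0.69 (SE 0.19) for AT2G25870.

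Both extremes of the whole pattern were probe sets unnamed here. One of them had the largest leaf difference, 3.00 (SE 0.42), with signals of 318, 473 and 427 in lug-3 leaves, against 13.4, 85.4 and 58.9 in wild-type leaves, and 702, 517 and 515 in lug-3 flowers, against 881, 1009 and 976 in wild-type flowers. Another had the most negative flower difference, -2.29 (SE 0.28), with signals of 15, 8.5 and 26 in lug-3 flowers, against 129.7, 106 and 87.5 in wild-type flowers, and 207, 280.1 and 251 in lug-3 leaves, against 82.5, 116 and 166 in wild-type leaves. The median leaf difference was 0.95 over the 109 unnamed members and 1.05 over the 67 members with 1 gene, and the median flower differences were -0.73 and -0.78.

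Whether a gene is more abundant in flowers or in leaves, averaged over the genotypes, is not used by the rule and was tested. The rule favours probe sets with little spread among arrays of a group, which makes calls easier. Where the spread differs between groups, the rule can also shift this difference among the members. Fitted with limma without a filter on low values, 124 of all 178 members (69.7%) were higher in flowers at a Benjamini-Hochberg adjusted p below 0.05, against 31.5% of all 22746 probe sets. Another 20 members (11.2%) were lower in flowers, against 21.9% of all probe sets, and 34 were not called. The median difference, flowers minus leaves, was 1.01 over the members and 0.04 over all probe sets. The filter on low values, used for the single genes below, was passed by 173 members and kept 17877 probe sets in all, of which 6890 (38.5%) were called higher and 4802 (26.9%) lower. Of the 181 probe sets of the opposite pattern that passed it, 52 (28.7%) were higher in flowers and 91 (50.3%) lower. The direction for all probe sets depended on the scaling of the arrays: centring each array on its median moved the overall median from 0.10 to -0.19, with 24.7% of probe sets called higher and 43.5% lower. Under that scaling 111 members were higher and 28 lower in flowers, against 124 and 19 with the deposited scaling in the same filtered set, and the members' median was 0.75, again above that of all probe sets.

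**Figure D3:**
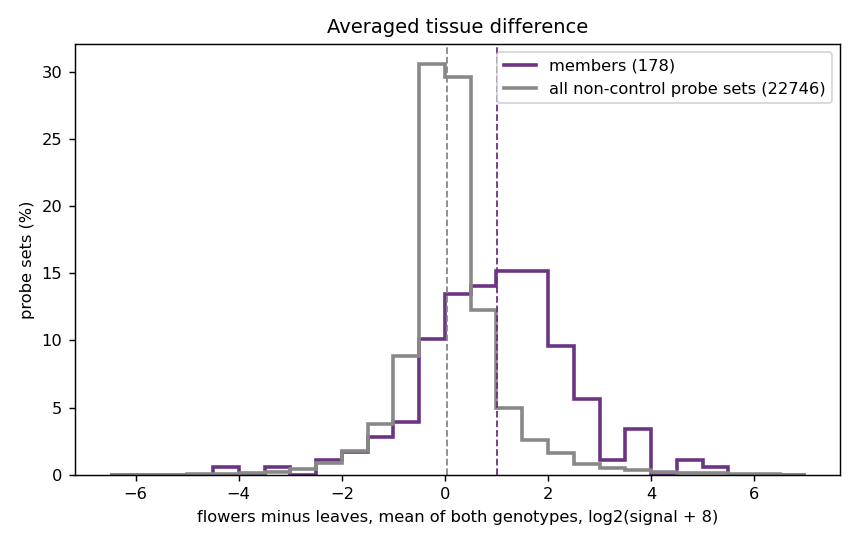
Distribution of the averaged tissue difference, flowers minus leaves in log2(signal + 8) (horizontal axis), for the 178 members and for all 22746 non-control probe sets, each as a percentage (vertical axis). Dashed lines mark the medians, 1.01 for the members and 0.04 for all probe sets, and the members lie mostly to the right of 0.

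THI2.1 had the largest averaged tissue difference among members with 1 gene, 5.27 (SE 0.14, adjusted p = 3.28e-11). The GDSL lipase gene AT5G45670 followed with 4.78 (SE 0.11, adjusted p = 1.64e-11), AT5G45950 with 3.67 (SE 0.22, adjusted p = 2.69e-08), GH3.17 with 3.55 (SE 0.16, adjusted p = 2.42e-09) and AT4G18970 with 3.55 (SE 0.21, adjusted p = 2.42e-08). In these 5 genes all flower arrays lay above all leaf arrays. GH3.17 and AT5G45670 passed the filter on low values only through their flower arrays, where they are high. The genes with the highest and lowest differences were chosen by that difference, so their p-values are descriptive. At the other end, AT2G45180 was lower in flowers, with a difference of -3.05 (SE 0.20, adjusted p = 5.49e-08), as were AT4G16980 with -1.61 (SE 0.12, adjusted p = 2.31e-07) and AT1G29660 with -1.07 (SE 0.16, adjusted p = 8.32e-05). AT3G60540, a gene for a beta subunit of the Sec61 translocation channel, had -1.11 (SE 0.13, adjusted p = 7.73e-06). AT2G15920, whose mean difference was -0.30, did not pass the filter and was not tested. By group, flowers were higher for 3 of 4 wall loosening genes, 4 of 4 pectin enzyme genes, 6 of 7 GDSL lipase genes, 3 of 3 cytoskeleton genes, 3 of 3 ribosomal protein genes, 4 of 4 genes of signalling and hormone metabolism, 1 of 2 transcription factor genes and 8 of 10 other enzyme and transporter genes, beside 38.5% of all tested probe sets. AUR2 was also higher in flowers. Of the 4 lipid transfer-like, arabinogalactan and DUF642 genes, 1 was higher and 2 were lower in flowers, and 1 was not called. EXPA8 was not called, at 0.48 (SE 0.24, adjusted p = 0.0963), nor was BZIP61, at 0.36 (SE 0.16, adjusted p = 0.0666), or either peroxidase gene. The share called higher was similar with and without a gene name, 47 of 65 tested members with 1 gene and 75 of 106 unnamed ones.

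The averaged difference hides the crossing of the genotypes. The median tissue difference over the tested members was 0.10 in lug-3 and 2.1 in wild type, against 0.14 in lug-3 and 0.06 in wild type over all tested probe sets. The gap between the genotypes is fixed by the rule, whereas the level around which it lies is not.

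Relatives of the members were grouped by gene symbol after the members were known, and the counts below leave the members themselves out. Their genotype calls come from the same limma fit, in which 2020 of 17877 probe sets (11.3%) were higher and 1973 (11%) lower in lug-3 leaves, and 943 (5.27%) were higher and 1207 (6.75%) lower in lug-3 flowers. Of 5 other tubulin genes tested, 3 were higher in lug-3 leaves and 2 lower in lug-3 flowers. TUB1 rose in lug-3 leaves by 1.57 (adjusted p = 0.00105) and its flower difference was -0.14 (adjusted p = 0.769), whereas TUA6 fell in lug-3 flowers, with a log2 difference of -0.93 (adjusted p = 0.00235), and its leaf difference was 0.05 (adjusted p = 0.863). ACT12, known from pollen, was the only other actin gene found by symbol among the named probe sets. It fell in lug-3 flowers, with a log2 difference of -1.20 (adjusted p = 0.00282), and its leaf difference was -0.35 (adjusted p = 0.259). Of 14 other expansin genes tested, 1 was higher in lug-3 leaves, and 1 was higher and 1 lower in lug-3 flowers. EXLA1, an expansin-like gene, rose in lug-3 leaves by 1.49 (adjusted p = 0.00308), with a flower difference of -0.07 (adjusted p = 0.904). EXPB5 fell in lug-3 flowers, with a log2 difference of -1.78 (adjusted p = 0.00104). Of 5 other XTH genes tested, 2 were higher in lug-3 leaves and 1 was higher in lug-3 flowers. XTH32 rose in lug-3 in both tissues, by 2.00 (adjusted p = 0.000208) in leaves and 0.87 (adjusted p = 0.0271) in flowers.

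Of 8 other RALF-like genes tested, 3 were higher and 2 lower in lug-3 leaves, and 5 were lower in lug-3 flowers. RALFL25 fell in lug-3 flowers, with a log2 difference of -2.15 (adjusted p = 0.000284), and RALFL31 fell in both tissues, with a log2 difference of -1.75 (adjusted p = 0.000147) in leaves and a log2 difference of -1.35 (adjusted p = 0.000757) in flowers. Among the GH3 enzymes, GH3.3 fell in lug-3 flowers, with a log2 difference of -1.70 (adjusted p = 3e-05). The relatives of AUR2, the kinase genes AUR1 and AUR3, had leaf differences of 0.27 (adjusted p = 0.187) and 0.28 (adjusted p = 0.539). AUR1 fell in lug-3 flowers, with a log2 difference of -0.47 (adjusted p = 0.0494), and the flower difference of AUR3 was -0.13 (adjusted p = 0.832).

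**Figure D4:**
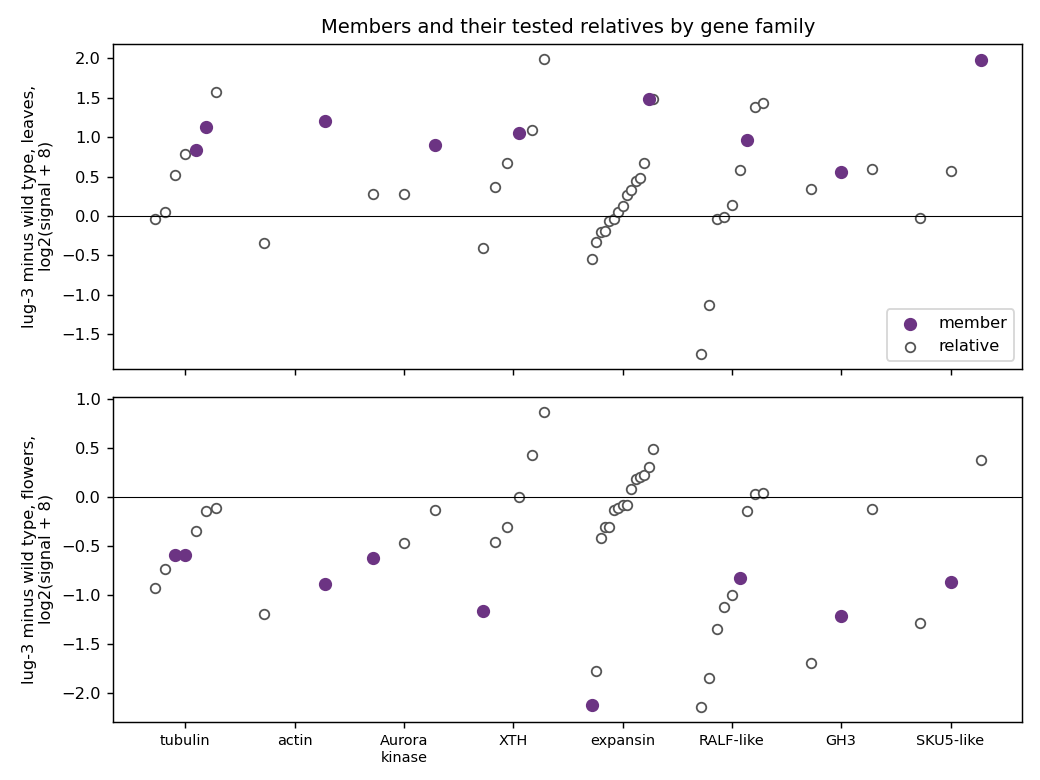
Difference between lug-3 and wild type, in log2(signal + 8), in leaves (upper panel) and flowers (lower panel) for the tested genes of 8 gene families, sorted by value within each family and panel, so that a gene can stand at different places in the panels. Members are purple and their relatives open; EXPA8 has the lowest flower difference of the expansin genes and SKU5 the highest leaf difference of its family, while the RALF-like genes lie on both sides of 0 in leaves.

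The floral and leaf marker lists were measured only in part. Of the photosynthesis list 3 of 22 genes were measured, of the pollen list 4 of 10, of the tapetum list 3 of 11, of the carpel, ovule and seed coat list 4 of 8 and of the anthocyanin list 3 of 8. None of these was a member, but members were only 0.783% of all probe sets, so their absence from such short lists says little. No floral organ identity gene of 7 has a named probe set here. The lists check the tissue labels: the 3 photosynthesis genes were lower in flowers, and the 4 pollen and 3 tapetum genes higher. Pollen markers moved with the members in flowers: all 4 fell in lug-3 flowers, and their summed signal was 130.5 to 215 in lug-3 flowers, against 483 to 642 in wild-type flowers. In leaves that sum was 39.3 to 49.5 in lug-3 and 65.5 to 80.6 in wild type. The 3 tapetum markers also fell in lug-3 flowers, with a sum of 470.4 to 636 in lug-3 flowers, against 1323 to 2042 in wild-type flowers, and of 24.1 to 26.3 in lug-3 leaves, against 10.8 to 21.8 in wild-type leaves. No pollen or tapetum marker was listed at 0, and the lowest single signal in leaves was 0.627. Of the carpel, ovule and seed coat markers, SPT rose in lug-3 flowers while BAN and INO fell, and their list summed to 309 to 364 in lug-3 flowers, against 492 to 645 in wild-type flowers. The 3 photosynthesis markers summed to 10432 to 11893 in lug-3 leaves, against 9735 to 12026 in wild-type leaves, and to 4632 to 6334 in lug-3 flowers, against 4204 to 5111 in wild-type flowers. The part of these cell types in the members' differences was not tested.

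The jasmonate list had 3 measured genes of 9 and 1 member, THI2.1. JMT, which makes methyl jasmonate, rose in lug-3 leaves by 1.53 (adjusted p = 0.0204), with a flower difference of 0.15 (adjusted p = 0.863). PDF1.2, the third measured gene, had differences of -0.66 (adjusted p = 0.369) in leaves and -0.73 (adjusted p = 0.384) in flowers. In the cell cycle list, 3 of 13 genes were measured, the member AUR2 and the genes PRL and AUR1. PRL, a gene for a replication helicase subunit, rose in lug-3 leaves by 0.82 (adjusted p = 0.00255), with a flower difference of -0.12 (adjusted p = 0.677). SEU, the LUG partner and the only gene of its list of 5 with a named probe set, was not a member: it fell in lug-3 leaves, with a log2 difference of -0.33 (adjusted p = 0.027), and its flower difference was 0.06 (adjusted p = 0.754). The 3 anthocyanin genes fell in lug-3 in both tissues. The transcript of LUG itself was not analysed here, because none of the named probe sets carries its symbol, so the genotype labels have no direct check.

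RNA quality, as read from the GAPDH controls, differed between the genotypes, most clearly in leaves. The 3'/5' ratio of the GAPDH controls, which rises as RNA degrades, was 1.47, 1.68 and 1.58 in lug-3 leaves, against 1.71, 2.83 and 3.44 in wild-type leaves. It was 1.65, 2.02 and 3.10 in lug-3 flowers, against 1.63, 1.78 and 2.07 in wild-type flowers. For leaves the mean ratio was higher in wild type (2.66, against 1.58 in lug-3), and the arrays did not overlap. For flowers the mean was higher in lug-3 (2.26, against 1.82 in wild type), but the arrays overlapped. In each tissue, the genotype with the higher mean GAPDH ratio was thus the one where the members are lower by the rule. For the ubiquitin controls the leaf arrays overlapped, at 1.72, 1.59 and 1.49 in lug-3, against 1.43, 2.09 and 2.19 in wild type. Their means were 1.60 and 1.90. The actin ratios, in the pairing of controls used, overlapped in leaves as well, with means of 7.36 in lug-3 and 9.60 in wild type. Without the 3 arrays of highest GAPDH ratio (arrays 2 and 3 of wild-type leaves and array 3 of lug-3 flowers), the leaf comparison rests on 1 wild-type array. The members' median differences were then 1.04 in leaves and -0.77 in flowers, and 142 members remained past 0.5 and -0.5. All 178 members kept their direction in both tissues, which the separation required by the rule fixes when arrays are left out. With the GAPDH ratio as a covariate, an alternative chosen after the data were seen, the medians were 1.03 and -0.77, and 150 members remained past both limits. Without these arrays 17 of the 134 differences of the 67 members with 1 gene moved by over 1.5 times, and with the covariate 9 did. None turned its sign, which the rule fixes where arrays are left out but not with the covariate. Without the arrays the leaf difference was 2.38 for EXPA8, 1.15 for EXO, 0.44 for XTH16, 1.71 for AT3G07010, 0.55 for AUR2, 0.26 for BGLU15, 1.39 for AT5G28470, 0.52 for AT3G51470, 1.08 for AT4G19430 and 0.28 for AT2G15920, and the flower difference of AT5G64120 was -0.79. With the covariate the leaf difference was 0.41 for AT5G64120, 0.42 for AT3G43270, 0.34 for AT1G75900, 1.14 for EXO, 0.97 for AT4G19430 and 1.41 for AT5G28470, and the flower difference of AT2G10940 was -0.90. These numbers start from members chosen on all the arrays, and the part of RNA quality in single genes was not tested.

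The median log2 level of the 178 members separated lug-3 from wild-type arrays within each tissue, which the rule fixes. The lug-3 arrays of the tissues overlapped. It was 6.45, 6.63 and 6.58 in lug-3 leaves, against 5.27, 5.51 and 5.53 in wild-type leaves. In flowers it was 6.66, 6.56 and 6.58 in lug-3, against 7.72, 7.57 and 7.41 in wild type. The lug-3 arrays of both tissues thus lay within a narrow band between the wild-type leaf arrays and the wild-type flower arrays. Within groups, array 1 of lug-3 leaves was the lowest of its group for 109 members, array 1 of wild-type leaves for 87 and array 3 of wild-type flowers for 102. Over all probe sets the median signal was 38.3 to 41.0 on leaf arrays and 48.8 to 52.6 on flower arrays.

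**Figure D5:**
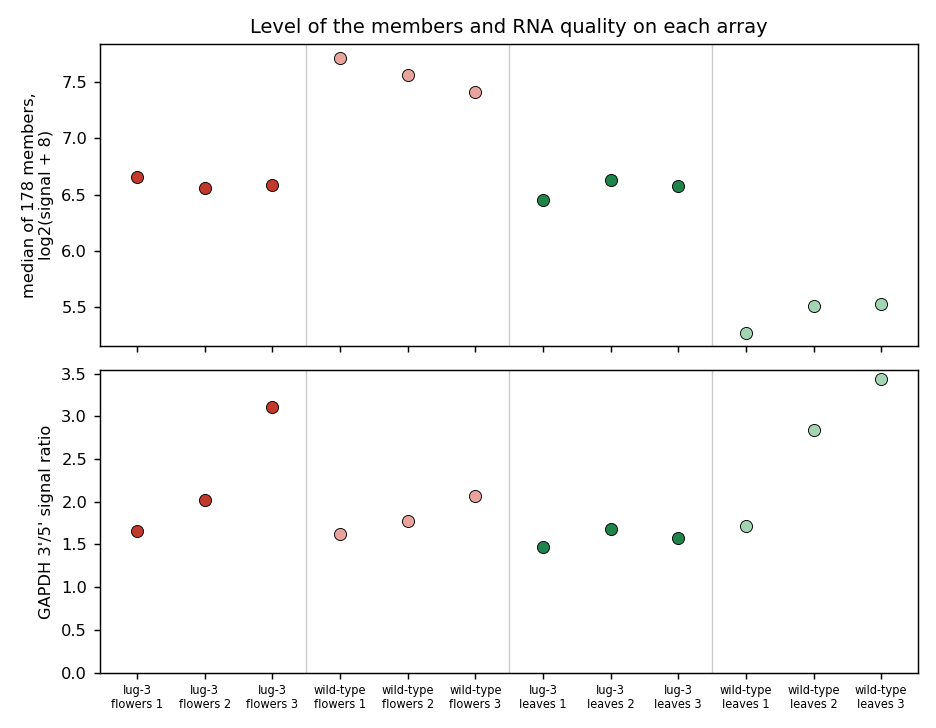
Median log2(signal + 8) of the 178 members (upper panel) and the 3'/5' ratio of the GAPDH controls (lower panel) on each of the 12 arrays, grouped by tissue and genotype. The lug-3 arrays of both tissues have medians of 6.45 to 6.66, below wild-type flowers and above wild-type leaves, while the ratio is highest on array 3 of wild-type leaves, at 3.44.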

How the data were processed

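Transcript levels were measured on 12 one-colour Affymetrix ATH1 arrays. The authors deposited 1 linear intensity for each probe set and array, called signal. MAS5 and GCOS appear in the submitters' processing notes, without versions. On every array the mean signal was 100.0 after trimming 2% of probe sets at each end, which is the authors' scaling, and none was added.

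Of 22810 probe sets, 64 controls were dropped. Gene names come from GEO's platform annotation, updated through Entrez IDs with a RefSeq table (assembly TAIR 10.1), which matched all 67 members with 1 gene; it also gave the order of genes. Probe sets annotated with several genes give no gene name, and no sequences are shown.

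Differences in log2(signal + 8) are too small for weakly expressed genes. One linear model with 4 group means was fitted with limma 3.58.1 in R 4.3.3 (8 residual and 3.79 prior degrees of freedom) to the 17877 probe sets with a signal above 16.4 on at least 3 arrays, with Benjamini-Hochberg adjustment over all of them and a threshold of 0.05. It was checked on simulated data. The averaged tissue difference is the mean of the flower-minus-leaf differences of lug-3 and wild type. If the spread is equal in all groups, its estimation error is uncorrelated with that of the contrasts used by the rule. Spread was unequal for some members, such as EXPA8 in leaves, and the choice of members can then shift the averaged difference. SE values of the tissue differences come from this fit. Those of the leaf and flower differences come from the same model fitted to all 22746 non-control probe sets. They are pooled over the 4 groups, so both differences of a probe set have the same SE. Precision is limited by the number of arrays.

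The members, gene lists, roles and families were chosen with earlier results of these data known. The 31 probe sets chosen for description were the members with 1 gene that had the 10 largest leaf, the 10 most negative flower and the 10 largest leaf-minus-flower differences, the 5 highest and 5 lowest tissue differences and the 5 highest levels, with members of lists, classes and neighbouring pairs. Other genes named by role or family, and the 2 extreme unnamed probe sets, were chosen after their values were seen. Alternatives were other pseudocounts, scalings, filters and limits, each array left out and a replicate block.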

Additional observations from a re-analysis of the deposited data

Results flagged for a closer look

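By the rule, lug-3 moved in opposite directions in flowers and in leaves for each member. The median over the 178 members of the flower difference minus the leaf difference was -1.80 on the log2 scale. All lug-3 arrays of a member lie below wild type in flowers and above wild type in leaves, which the rule fixes, so the value describes the members and was not tested.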

How the results depend on the processing

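The number of members depended on the limits. It was 90 with a pseudocount of 32, against 178 with 8, and 230 with 1 and 140 with 16. It was 26 with a minimum difference of 1 and 487 with 0.25, and 335 without the 3 arrays of highest GAPDH ratio, where wild-type leaves keep 1 array and separation is easier. Leaving out 1 array at a time gave 176 to 232, and at least 158 of the 178 were kept each time. Median centring gave 170 and quantile normalization 191, each with 161 of the 178. Calls by limma in both tissues gave 138 probe sets, 105 of them members. Among the tested members, the median averaged tissue difference was 1.04 as reported, 1.21 with a pseudocount of 1, 0.80 with 32 and 0.75 with median centring. Members called higher in flowers numbered 111 to 128 over 24 alternatives, and members called lower 18 to 28. For all probe sets the median of 0.10 reversed to -0.19 with median centring, with 4409 called higher and 7769 lower against 6890 and 4802, and to -0.048 with quantile normalization, with 5682 and 6240. Leaving out 1 array gave 121 to 125 members called higher, 19 to 20 lower and medians of 1.01 to 1.1. No member's genotype difference turned its sign when 1 array was left out, which the full separation required by the rule fixes. Of the 134 genotype differences of the 67 members with 1 gene, 9 moved by over 1.5 times when 1 array was left out. They were the differences of AT4G19430, AT5G64120, AT2G45180 and AT2G15920 given above, and those in leaves of AT5G28470 (0.46 without wild-type array 1), AT3G51470 (0.48 without lug-3 array 2) and AT3G20450 (0.20 without lug-3 array 3) and in flowers of AT3G56480 (-0.35 without lug-3 array 2) and AT2G07360 (-0.52 without lug-3 array 3). Replicate numbers did not pair the samples: over 18 pairs of same-numbered samples the correlation of their deviations from group means was -0.11 to 0.18, with 3 above 0.1, and the shared number was the best match in 6. With the replicate block, 123 members were called higher and 19 lower.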
